A study of Mus musculus with 29 samples.

Results

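*Spp1* encodes osteopontin, a secreted phosphoprotein that cells release into the matrix around them. It was followed here as 1 gene among the 19704 genes of the young brain tables, the 27514 of the aged brain tables and the 16623 of the blood tables. The gene was picked because its levels in these samples were known to be high after stroke, so its levels are described and not tested. For every library, the values of all cells sharing a cell type label were added up, and *Spp1* was expressed as CPM, its counts scaled to a common total per library and type. The share of cells carrying *Spp1* was then read for each of the authors' sub cell types.

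Osteopontin binds integrins through an arginine-glycine-aspartate motif, and it also binds the adhesion receptor CD44. Proteases such as thrombin, plasmin and matrix metalloproteinases cut it and expose further integrin sites. Macrophages, osteoclasts and activated glia are among its known producers, and in injured brain it is a familiar product of phagocytes that gather at the lesion. In the brain, microglia are the resident macrophages, border-associated macrophages line vessels and meninges, and monocyte-derived cells enter from blood.

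The gene lies on the plus strand of chromosome 5 at chr5:104435118-104441050 (GRCm38, the build also called mm10), is annotated as protein coding (ENSMUSG00000029304.14), and its transcript ENSMUST00000031243.14 has 7 exons, 1410 bases and 882 coding bases. The stretch below is shown because it holds the codons by which the protein meets its receptors. It was read from exon 6 at chr5:104439457-104439513, and the capitals mark the codons of the arginine-glycine-aspartate motif, which occurred once in frame in the coding sequence.

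Spp1 exon 6: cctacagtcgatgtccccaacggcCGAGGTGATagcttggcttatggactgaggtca

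The study profiled single cells of C57BL/6J mice by Drop-seq, a droplet method, after transient middle cerebral artery occlusion, in which a brain artery is blocked for a time and reopened, or after sham surgery. Brain cells were sorted as microglia, other leukocytes with high CD45 and endothelial cells, and each brain library pooled 4 to 5 hemispheres, while each blood library pooled 2 mice. Young brain libraries came from males of 8 to 10 weeks: 4 sham libraries at day 2, 4 stroke libraries at day 2 and 4 stroke libraries at day 14. Aged brain libraries came from mice of 17 to 20 months: 2 sham libraries at day 2 (1 male, 1 female), 3 stroke libraries at day 2 (1 male, 2 female) and 1 female stroke library at day 14. Blood libraries came from young males: 4 sham at day 2, 4 stroke at day 2 and 3 stroke at day 14. No sham group of day 14 was analysed here, so day 14 is set against the sham of day 2. All brain groups were digested with papain in the presence of Brilliant Blue G, actinomycin D, which blocks transcription, and AP-5.

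The 29 libraries held 106977 cells, 55268 of them from brain, with 819438 to 5855047 counts in a brain library and 966914 to 5232662 in a blood library. Median counts per cell ran from 321 to 1363 over the brain libraries. Any 2 libraries shared at most 7 cell barcodes. Cell type labels were checked against marker genes: the type's own marker list was the highest of all lists in each brain type that had a list, except in dendritic cells, where the monocyte-derived list was higher. In young stroke day 2, replicate 3 stood apart: only 58 of its cells were labelled microglia, and their 5 microglia markers (*P2ry12*, *Tmem119*, *Sall1*, *Siglech*, *Gpr34*) summed to 222 CPM against 3532 to 3821 CPM in the other 3 libraries of the group. Its monocyte markers in those cells summed to 839 CPM. In replicate 2 of that group, which had the highest *Spp1* of the group in monocyte-derived cells, those cells carried 3989 CPM of the monocyte markers against 8452 to 9835 CPM in the other 3 libraries, and the part of this in its *Spp1* was not tested. In aged stroke day 2, female replicate 2 stood apart by *Spp1* itself, while its 170 microglia carried 5750.5 CPM of the microglia markers, against 3165 and 2425 CPM in the male library and female replicate 1. In the male aged stroke library of day 2, the 6 neutrophil markers summed to 1535 CPM in microglia, against 62.5 and 121 CPM in the female libraries, and to 5740 CPM in monocyte-derived cells, against 475 and 308 CPM. The part of those transcripts in its *Spp1* values was not tested. The differences and calls below were also computed with each library left out, and some day 2 shares without replicate 3, a choice made after its values were seen.

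*Spp1* was almost silent in the sorted cells of young sham brain and was abundant in young brain phagocytes after stroke. It made up 0.00047% to 0.00124% of all counts in the young sham libraries, 0.41% to 1.00% at day 2 after stroke and 0.338% to 1.35% at day 14. The ranges of the sham and stroke libraries did not overlap at either time. After stroke, nearly all of it came from 2 of the sorted cell types. These shares describe the sorted cells and not the whole tissue. At day 2, monocyte-derived cells held on average 63.0% and microglia 36.1% of a library's *Spp1* counts, or 51.6% and 47.5% without replicate 3, and pooled over the 4 libraries each held 49.5%. Pooled without replicate 3, microglia held 58.3% and monocyte-derived cells 40.8%. At day 14, monocyte-derived cells held 57.2% and microglia 42.1% on average. In a library total, more cells of a type and more RNA per cell cannot be told apart, so levels are given below within each type.

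Microglia of the 4 young sham libraries had 4.66, 3.50, 0 and 3.66 CPM of *Spp1*. At day 2 after stroke, replicates 1 to 4 had 8392, 8448, 12517 and 17133 CPM, and at day 14 they had 4741, 4891, 17328 and 2900 CPM. Every stroke library was above every sham library, and the libraries of days 2 and 14 overlapped. Means were 2.95 ± 2.04 CPM in sham, 11623 ± 4150 at day 2 and 7465 ± 6637 at day 14 (SD, n = 4 each). On the scale log2(mean CPM + 1), day 2 was 11.52 above sham (SD 1.26) and day 14 was 10.88 above sham (SD 1.60). Here and below, the SD beside a log2 difference combines both groups. It is the root of the summed squares of their SDs of log2(CPM + 1), so it is at least as wide as either. Both differences were smaller with a larger pseudocount, as given at the end. The difference of day 14 from day 2 was -0.64, smaller in size than its combined SD (1.21).

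The value of replicate 3 at day 2 rests on 329 *Spp1* counts in 58 cells. Without that library, the difference of day 2 from sham was 11.48. At day 14, replicate 3 was far above the other 3 libraries, and without it the difference of day 14 from day 2 was -1.48.

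Monocyte-derived cells had higher sham levels than microglia in all 4 libraries. The young sham libraries had 8.81, 51.4, 170 and 186 CPM of *Spp1* in these cells. Stroke day 2 gave 4198, 13346, 5876 and 6065 CPM, and day 14 gave 13296, 11191, 23930 and 10433 CPM. All stroke libraries were above all sham libraries, and days 2 and 14 overlapped only through replicate 2 of day 2. Means were 104 ± 87.4 CPM in sham, 7371 ± 4071 at day 2 and 14713 ± 6263 at day 14 (SD, n = 4 each), so day 2 was 6.13 and day 14 was 7.13 above sham on the log2 scale (SD 2.11 and 2.06). Over cells of at least 500 counts, these differences were 8.53 and 9.55. Day 14 was 1.00 above day 2 (SD 0.892), a ratio of means of 2.00. Sham brains held few such cells, 43 to 99 per library, so a sham value here rests on fewer than 10 *Spp1* counts.

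Within single young stroke libraries, the balance between the 2 cell types differed between the days. The ratio of *Spp1* in monocyte-derived cells to that in microglia was 0.50, 1.58, 0.47 and 0.35 in replicates 1 to 4 of day 2. It was 2.80, 2.29, 1.38 and 3.60 at day 14, where monocyte-derived cells were the higher type in all 4 young libraries. In aged mice the ratio was 0.303 in the male library, 0.290 in female replicate 1 and 15.4 in female replicate 2 at day 2, and 0.775 in the single library of day 14. The ratio was higher at day 14 in 4 of 4 pairs of libraries with the same number, although the labels do not say what a number shares. Among the young day 2 libraries only replicate 2 had a ratio above 1, within the range of young day 14, and the ratio of 0.47 in replicate 3 rests on its 58 microglia. Markers of each type were also read in the other: the 6 monocyte markers (*Ccr2*, *Ly6c2*, *Plac8*, *Chil3*, *Ms4a4c*, *F10*) summed to 0 to 839 CPM in day 2 microglia and to 5.06 to 97.6 CPM in day 14 microglia. The 5 microglia markers summed to 48.2 to 134 CPM in monocyte-derived cells of day 2 and to 0 to 134 CPM in those of day 14. The part of these transcripts in the ratios was not tested.

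**Figure D1:**
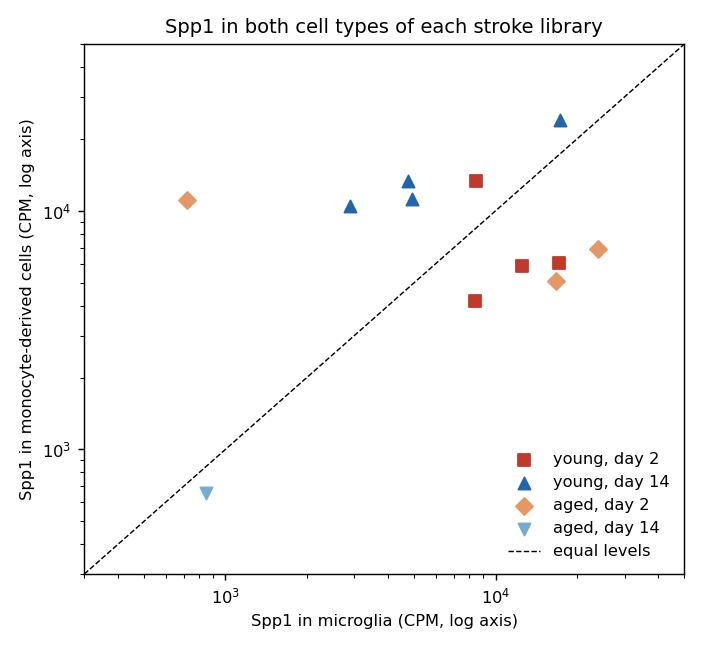
*Spp1* in microglia (x axis) and in monocyte-derived cells (y axis) of the same library, in CPM on log axes, 1 point per stroke library; the dashed line marks equal levels. The 4 young day 14 libraries lie above the line with ratios of 1.38 to 3.60, and 3 of the 4 young day 2 libraries lie below it, replicate 3 with 58 microglia among them.

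Border-associated macrophages followed the same direction at a lower level. Their sham libraries had 22.1, 91.1, 54.1 and 33.9 CPM of *Spp1*, their day 2 libraries 1153, 5439, 1450 and 2118 CPM, and their day 14 libraries 813, 323, 1612 and 497 CPM. Stroke libraries lay above all sham libraries at both times, and days 2 and 14 overlapped. The ratio of means to sham was 50.5 at day 2 and 16.1 at day 14. Replicate 2 of day 2, at 5439 CPM, was far above the rest of its group and raises the first ratio. The markers of this type summed to 2174 to 13514 CPM in sham, 7740 to 14928 at day 2 and 4798 to 11083 at day 14.

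Granulocytes, short-lived cells that are mostly neutrophils, had 6.84 ± 9.15 CPM of *Spp1* in sham and 195 ± 231 CPM at day 2, where replicates 1 to 4 had 519, 195, 0 and 64.5 CPM. At day 14 they had 1131, 1337, 719 and 384 CPM (mean 893 ± 426). The day 14 libraries overlapped those of day 2 only through replicate 1 of day 2. The 6 neutrophil markers in granulocytes summed to 225784 to 300479 CPM in sham, 110761 to 203368 at day 2 and 51841 to 66058 at day 14. Microglia markers in them summed to 32.3 to 124, 0 to 44.5 and 80.9 to 224 CPM, and monocyte markers to 657 to 2560, 404 to 1522 and 268 to 942 CPM. The part of these shifts in granulocyte *Spp1* was not tested. Dendritic cells, which present antigen to T cells, had 23.4 ± 20.5 CPM in sham, 253 ± 68.4 at day 2 and 152 ± 108 at day 14 (SD, n = 4 each).

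Ranked by mean CPM at day 2, the order of young brain types was microglia, monocyte-derived cells, border-associated macrophages, dendritic cells, B cells, granulocytes, T cells, NK cells and endothelial cells. Among neighbours in that order, only border-associated macrophages and dendritic cells, and NK and endothelial cells, had library ranges that did not overlap. The NK cells had 2 libraries, at 0.469 and 171 CPM, so their gap to endothelial cells rests on a value near 0. The B cells also had 2 libraries, at 0.0731 and 432 CPM. At day 14 the order began with monocyte-derived cells, microglia, granulocytes, border-associated macrophages and dendritic cells. There the gaps without overlap lay between microglia and granulocytes and between border-associated macrophages and dendritic cells. In sham, every pair of neighbours overlapped, and monocyte-derived cells (104 CPM) led the order while microglia (2.95 CPM) came near its end.

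**Figure D2:**
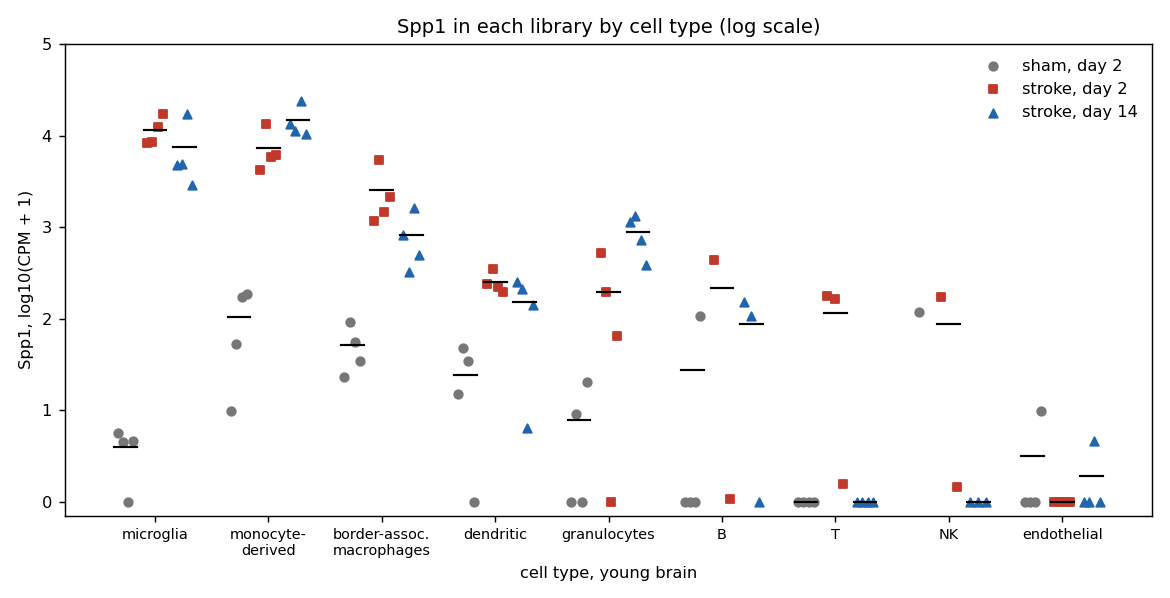
*Spp1* as log10(CPM + 1) in each young brain library with at least 20 cells of the type; points are libraries, and black bars are means where a group has at least 2 libraries. Microglia and monocyte-derived cells of all stroke libraries sit between 2900 and 23930 CPM, above the 0 to 186 CPM of sham.

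Endothelial cells, which line vessels, had the lowest mean *Spp1* of the young brain types at day 2. They had 0 CPM in all 4 day 2 libraries and 0.903 ± 1.81 CPM at day 14. Yet 13.6% of the 2491 endothelial cells of day 2 and 16.6% of the 1610 of day 14 carried a *Spp1* value above 0, against 0.0562% in sham. The 338 endothelial values above 0 at day 2 were all vanishingly small, with a maximum of 5.95e-14 counts, so a value above 0 is not a whole transcript here. Rounding each cell's value up to a whole count would turn the 0 CPM of day 2 into 158 CPM. Cells with at least 0.5 counts were therefore counted beside cells above 0, a limit chosen after these values were seen. By that measure, *Spp1* was detected in 0 of 2491 endothelial cells at day 2. The limit was set above values already seen, so this 0 followed from the choice. It gives no bound on the share of cells that carry or express the gene. Lymphocytes gave higher shares at day 2: 5.58% of 215 T cells, 5.71% of 70 B cells and 5.48% of 73 NK cells, against 0 of 853 T cells, 4.96% of 141 B cells and 0 of 349 NK cells at day 14. In aged mice, 3.07% of the 748 endothelial cells of day 2 carried it, with 171 CPM in 1 library. The granulocyte share of day 2, 3.43% of 350 cells, was below those of lymphocytes, whereas 19.3% of 363 granulocytes carried *Spp1* at day 14 and 19.4% of 1282 dendritic cells at day 2.

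By the same measure, 0.104% ± 0.0725 of sham microglia carried *Spp1*, against 46.7% ± 10.8 at day 2 and 48.9% ± 22.6 at day 14 (mean of library shares, SD, n = 4). Without replicate 3 the day 2 share was 42.7% ± 8.84 (SD, n = 3). The shares above 0 were 0.132%, 51.9% and 49.1%. In monocyte-derived cells the shares with at least 0.5 counts were 1.67%, 53.2% and 51.4%. Median counts per cell were 552 in endothelial cells, 916 in microglia and 1074 in monocyte-derived cells of day 2 pooled over libraries. Thinned to 300 counts per cell, the shares were 36.1% in microglia and 38.0% in monocyte-derived cells at day 2, and 32.0% and 39.3% at day 14, while day 2 endothelial cells stayed at 0%. Cells under 300 counts were left out: 438 microglia, 873 monocyte-derived and 445 endothelial cells at day 2, and 1149 microglia and 399 monocyte-derived cells at day 14. No endothelial cell of day 2 held 0.5 counts, so thinning could only return 0% for them. It therefore gives no comparison of endothelial cells with phagocytes at matched depth.

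Within each type, *Spp1* counts were concentrated in few cells, ranked by their raw *Spp1* counts. Cells with more counts in all enter the top of that ranking more readily, and the part of depth was not tested. The 10% of microglia with the most *Spp1* held 57.2% to 93.1% of it in the day 2 libraries and 70.8% to 90.1% in those of day 14. In monocyte-derived cells the top 10% held 67.7% to 84.9% at day 2 and 67.3% to 79.2% at day 14. In 2.82% of day 2 microglia, *Spp1* took over 10% of all the cell's counts, and 1 such cell had 1141 *Spp1* counts. Among monocyte-derived cells of day 2, 0.083% passed that mark.

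The authors' sub cell types, which were defined from the same cells and so cannot be tested for *Spp1*, divided the level further. At day 2, the 1034 cells of microglia sub type Mg4 had 32843 CPM, and 59.4% of them carried at least 0.5 counts. They were 38.4% of microglia and held 82.2% of the microglial *Spp1*. The 911 cells of Mg5 had 4167 CPM with 48.3% of cells, and the 133 cells of Mg3 had 3940 CPM with 33.8%. Mg1 and Mg2, which made up most of sham microglia, had 379 and 405 CPM at day 2 with 13.4% and 18.7% of cells. Lymphocytes had 5.48% to 5.71% at that time, shares that rest on few cells, and depth was not matched between these types.

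At day 14 other sub types held most of the microglial *Spp1*, while the 52 cells of Mg4 still had 13801 CPM. The 3415 cells of Mg3 had 6879 CPM and held 60.2% of it, and 46.5% of them carried at least 0.5 counts. Sub type Mg7 had 17667 CPM in 256 cells, only 4.95% of microglia, and held 35.5% of the *Spp1*. Its cells had a median of 4212 counts, against 734 in Mg3, and over the 4 libraries its level ranged from 616 to 30229 CPM. Mg1 and Mg2 had 186 and 326 CPM at this time. In sham, the 5826 cells of Mg1 had 0.35 CPM, while the 93 cells of Mg3 had 117 CPM.

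In monocyte-derived cells, too, the sub type that held most of the *Spp1* changed between the days. The order by level did not follow, as MdC6 was above MdC1 at day 2 and below it at day 14. At day 2, the 2267 cells of MdC1 had 14980 CPM, with 77.3% of cells, and held 69.7% of the *Spp1* of the type. At day 14, MdC6 had 30052 CPM in 985 cells, 87.2% of which carried at least 0.5 counts, and held 85.8%. Both sub types were present at both times: MdC1 had 39151 CPM in the 58 cells of day 14, and MdC6 had 15905 CPM in the 201 cells of day 2. The sub type with the lowest level at day 2 was MdC3, with 492 CPM and 23.3% of cells. MdC3 carried 13981 CPM of the monocyte markers there, against 3949 CPM in MdC1 and 2398 CPM in MdC6. The order was not the same throughout, as MdC4 had the most monocyte markers (15010 CPM) with 3383 CPM of *Spp1*, and MdC5 had 6807 CPM of them with 1802 CPM of *Spp1*. The microglia markers summed to 10315 CPM in Mg1 and 2030 CPM in Mg4 at day 2, while monocyte markers in Mg4 summed to 64.7 CPM. MdC6 of day 14 carried 106 CPM of microglia markers beside 1745 CPM of monocyte markers. Among border-associated macrophages of day 2, BAM3 and BAM4 had 3357 and 2912 CPM, BAM1 had 1525 CPM and BAM2 had 336 CPM. At day 14, BAM2 was above BAM1, with 1237 against 654 CPM. BAM2 carried 2501 CPM of monocyte markers beside 2843 CPM of border-associated macrophage markers at day 2.

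**Figure D3:**
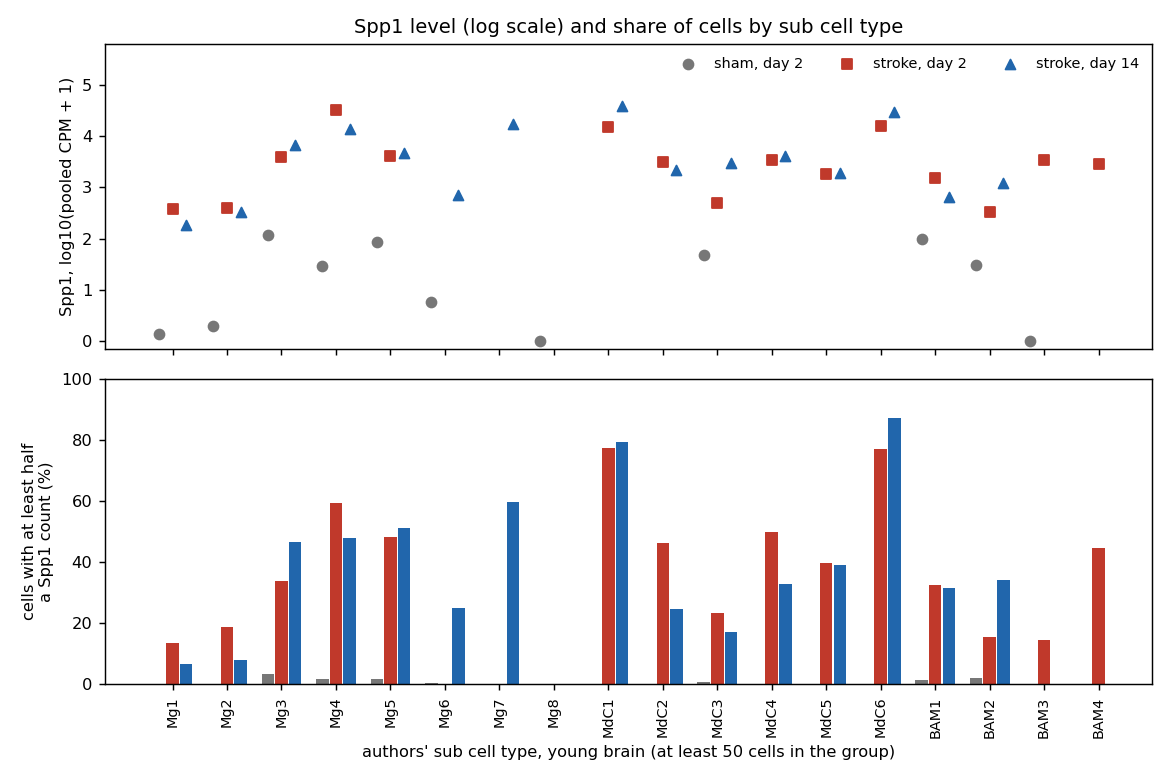
*Spp1* by the authors' sub cell type in young brain, for sub types with at least 50 cells in a group: the upper panel gives log10(pooled CPM + 1) and the lower panel the percent of cells with at least 0.5 counts, both pooled over the 4 libraries of a group. Mg4 leads microglia at day 2 with 32843 CPM, and MdC6 reaches 87.2% of cells at day 14.

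Aged mice had more *Spp1* in sham microglia and a wide spread after stroke. Sham microglia had 60.0 CPM in the male and 99.1 CPM in the female library, both above the 0 to 4.66 CPM of the young sham libraries. The aged and young tables hold different gene sets and no test was run, and sex differs between the groups in part. In aged sham, 83.1% of the microglial *Spp1* sat in the 161 cells of Mg3, which had 1058 CPM with 16.1% of cells, against 10.1 CPM in the 1619 cells of Mg1. At day 2 after stroke, aged microglia had 16691 CPM in the male library, 23910 in female replicate 1 and 718 in female replicate 2. The first 2 libraries were as high as the young day 2 libraries, and the third was above both aged sham libraries but below every young stroke library. The log2 difference of aged day 2 from aged sham was 7.42 (SD 2.83), and it was 7.98 without female replicate 2.

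The library with low microglial *Spp1* did not lack the transcript. Its monocyte-derived cells had 11091 CPM, the highest of the 3 aged stroke libraries, against 5057 CPM in the male and 6940 CPM in female replicate 1. They held 97.7% of the *Spp1* of that library, whereas microglia held 78.7% and 82.6% in the other 2. As in young mice, Mg4 led the aged day 2 microglia, with 37432 CPM in 603 cells. Aged Mg4 cells carried 1102 CPM of neutrophil markers beside 1051 CPM of microglia markers. Young Mg4 cells of day 2 carried 74.1 and 2030 CPM. The part of these transcripts in the *Spp1* of aged Mg4 was not tested. Among aged monocyte-derived sub types with at least 50 cells, MdC1 led with 18832 CPM in 618 cells. In female replicate 2, Mg4 cells had 1369 CPM.

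The single aged library of day 14 was low throughout, and with 1 library there is no replicate check. Its 1804 microglia had 845 CPM, its 87 monocyte-derived cells 655 CPM and its border-associated macrophages 0 CPM. *Spp1* was 0.0641% of all its counts, below each of the 4 young day 14 libraries. Its Mg3 cells, 1142 in number, had 1081 CPM, against 51.3 CPM in its Mg1 cells.

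Blood leukocytes carried almost none. Of 11 blood libraries 4 had no *Spp1* count, and the other 7 had 2.74 to 5.95 CPM. Cells with at least 0.5 counts numbered 28 of 17729 in sham, 25 of 18337 at day 2 and 15 of 15643 at day 14. Most were neutrophils: 20 of 5451 in sham, 20 of 8813 at day 2 and 11 of 2922 at day 14. Blood monocytes, from which monocyte-derived brain cells arise, held *Spp1* in 4 of 2401 cells in sham, in 2 of 1800 at day 2 and in 0 of 2357 at day 14. The last allows a share of up to 0.127% of cells with a count. Blood monocytes had medians of 691 counts per cell at day 2 and 651 at day 14, below the 1074 and 1037 of brain monocyte-derived cells, whose shares were 53.2% and 51.4%.

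The genes around osteopontin were read from lists of its receptors, its proteases, transcription factors known to act on it, and genes of activated phagocytes. These were tested within a cell type by edgeR's quasi-likelihood test on counts summed per library, with Benjamini-Hochberg adjustment over all genes and a call at an adjusted p under 0.05. Libraries are separate samples of pooled animals, and the labels do not say more about their independence. The lists were chosen with earlier results of these data known, so counts of calls on them are descriptions and no test of a list. The other members of the small integrin-binding family of osteopontin (*Ibsp*, *Dmp1*, *Dspp*, *Mepe*) were not analysed here.

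Of the receptors, *Itga9* was called lower and *Cd44* called higher in microglia after stroke, the latter with overlapping library ranges. At day 2, 31.4% of all 10145 genes were called in young microglia against sham, and of 7 receptor genes tested 1 was higher, 1 lower and 5 not called. *Cd44*, the hyaluronan and osteopontin receptor, was higher with 37 counts in the stroke libraries against 3 in sham, a pooled ratio of 15.7 (95% counting interval 4.96 to 79.4; adjusted p = 0.0376). The *Cd44* call was lost in 6 of 8 fits that left out a library, replicate 3 of day 2 among them (adjusted p = 0.058; highest 0.173). In unrounded sums, *Cd44* ran from 0 to 50.5 CPM over the day 2 libraries and from 0 to 1.56 CPM over sham. *Itga9*, which encodes the alpha-9 integrin chain, fell from 53.1 ± 10.2 to 7.6 ± 5.8 CPM, a log2 fold change of -2.30 ± 0.40 (SE; adjusted p = 0.00119). *Itgb1*, the shared beta-1 chain, *Itgav* and *Itgb5*, chains of RGD-binding integrins, had adjusted p of 0.723, 0.655 and 0.749. The median log2 fold change of the 7 receptors was -0.22, against -0.05 over all genes. The 3182 calls were 1588 higher and 1594 lower, a split that became 1273 and 2118 without TMM scaling of library sizes and 1224 and 2185 by DESeq2.

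At day 14, 15.2% of the genes were called in microglia against sham (10.6% higher and 4.66% lower), and the receptors again gave 1 higher, 1 lower and 5 not called. *Cd44* was higher with a log2 fold change of 5.29 ± 1.42 (adjusted p = 0.0244; 108 counts against 3), a call lost in 4 of 8 fits that left out a library. Its day 14 libraries ran from 0 to 26.9 CPM in unrounded sums, which overlaps the 0 to 1.56 CPM of sham. *Itga9* was lower by -2.84 ± 0.38 (adjusted p = 0.000211). Between day 14 and day 2, where 6.93% of genes were called, none of the 7 receptors was. Without TMM scaling, more calls were lower than higher, with 670 higher and 2755 lower for day 14 against sham and 202 higher and 955 lower for day 14 against day 2 (352 and 351 with it). The split also moved under DESeq2, to 1145 higher and 841 lower and to 523 higher and 353 lower.

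Outside microglia, *Cd44* was highest in granulocytes, with 825 ± 157 CPM in sham, 910 ± 187 at day 2 and 863 ± 302 at day 14. Monocyte-derived cells had 472 ± 248, 481 ± 220 and 226 ± 48.3 CPM of it. Endothelial cells had 1.25 CPM or less of *Cd44* in all 3 groups but 694 ± 75.9 CPM of *Itgb1* in sham and 996 ± 290 at day 2. T cells carried *Itga4*, the alpha-4 chain, at 310 ± 184 CPM in sham, 255 ± 104 at day 2 (n = 3) and 220 ± 49.3 at day 14. These levels are descriptions and were not compared by a test.

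Among the proteases, *Mmp12*, the macrophage elastase, appeared in microglia after stroke. It had 0 counts in sham and 191 at day 2 (adjusted p = 9.56e-05), at least 80.9-fold higher against a limit of 3 counts over the sham group. At day 14 it had 40 counts, at least 11.9-fold higher than sham (adjusted p = 0.00275), and it fell from day 2 to day 14 by 2.76 ± 0.54 on the log2 scale (adjusted p = 0.013; 0.0555 without replicate 1 of day 2). *Ctsd*, a lysosomal aspartic protease, was higher at day 14 (2.11 ± 0.39, adjusted p = 0.00292; 0.0687 with cells' values rounded up) and had a log2 fold change of 0.87 at day 2 (adjusted p = 0.0925; 0.0322 without replicate 3). Of the 2 tested proteases 1 was called at day 2, where 31.4% of all genes were, and 2 at day 14, where 15.2% were. *Mmp9*, the gelatinase of neutrophils, was found in granulocytes at 1156 ± 608 CPM in sham, 1275 ± 147 at day 2 and 745 ± 298 at day 14, and at 1.36 CPM or less in monocyte-derived cells.

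Transcription factors of the list moved in both directions in microglia at day 2: 1 of 6 tested was higher, 4 were lower and 1 was not called, where 15.7% of all genes were called higher and 15.7% lower. *Hif1a*, the hypoxia-inducible factor, was higher by 0.82 ± 0.25 (adjusted p = 0.0232), a call that was lost by DESeq2, without TMM scaling of library sizes (highest adjusted p = 0.113) and in 4 of 8 fits that left out a library. *Jun*, an AP-1 subunit, was lower by -2.61 ± 0.73 (adjusted p = 0.0166), *Mitf* by -1.28 ± 0.38, *Ets1* by -0.99 ± 0.32 and *Runx1* by -0.72 ± 0.21, with adjusted p of 0.0217, 0.0319 and 0.0225. *Jun*, *Mitf*, *Ets1* and *Runx1* each lost their call in 2 to 5 of the 8 fits that left out a library, and *Runx1* also with no filter on low counts (adjusted p = 0.057). *Fos* did not pass (-1.77 ± 0.88, adjusted p = 0.132). At day 14, *Hif1a* was higher than sham by 2.10 ± 0.24 (adjusted p = 5.5e-05), *Ets1* was lower by -0.98 ± 0.30 (adjusted p = 0.0421; lost in 7 of 8 fits that left out a library), and 4 were not called, where 10.6% and 4.66% of all genes were called higher and lower. From day 2 to day 14, *Mitf*, a regulator of lysosomal genes, rose by 1.91 ± 0.38 (adjusted p = 0.00972) and *Hif1a* by 1.29 ± 0.25 (adjusted p = 0.00705; 0.0687 without replicate 1 of day 2).

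Most phagocyte state genes, which mark lipid-handling and disease-associated microglia, rose. Their list was chosen with earlier results of these data known, so the counts of calls describe it and do not test it as a set. At day 2, 12 of 14 were higher, none lower and 2 not called, where 15.7% of all genes were called higher. The median log2 fold change was 3.20, against -0.05 over all genes. *Lgals3*, a galectin of activated macrophages, was higher by 8.17 ± 0.83 (adjusted p = 2.76e-05), *Fabp5*, a fatty acid carrier, by 5.36 ± 0.47 and *Lpl*, lipoprotein lipase, by 5.15 ± 0.62. *Apoe*, a lipid carrier, had 1.36 ± 0.50 (adjusted p = 0.0536), and *Trem2*, a lipid-sensing receptor, had -0.10 ± 0.34 (adjusted p = 0.852). Without replicate 3 of day 2 the count was again 12. The *Csf1* and *Gpnmb* calls were each lost in 1 of 8 fits that left out a library (adjusted p = 0.0722 and 0.097). The *Ctsb* call was lost with cells' values rounded up (adjusted p = 0.0607). In the same cells, the microglia markers had a median of 8677 CPM in sham (8429 to 10363), 3598 at day 2 (222 to 3821) and 3051 at day 14 (2638 to 4051), and the monocyte markers 5.19 CPM in sham (0 to 21.4), 97.7 at day 2 (0 to 839) and 33.7 at day 14 (5.06 to 97.6). Their part in the calls was not tested.

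At day 14 all 14 were higher than sham, where 10.6% of all genes were. *Igf1*, a growth factor, was higher by 8.03 ± 0.53, *Cst7*, a cysteine protease inhibitor, by 7.29 ± 0.51 and *Apoe* by 6.21 ± 0.62 (adjusted p = 1.77e-06, 1.77e-06 and 1.7e-05). *Gpnmb*, a membrane glycoprotein of lysosome-rich macrophages, had 1033 counts against 0 in sham, at least 308-fold higher. *Trem2* was higher by 1.23 ± 0.35 (adjusted p = 0.0303), and its call was lost in 6 of 8 fits that left out a library, replicate 3 of day 14 among them. It was also lost with no filter, without TMM scaling and with values rounded up (adjusted p up to 0.107), where 13 of 14 were called. From day 2 to day 14, 10 of 14 rose and 4 were not called, where 3.47% of all genes were called higher and 3.46% lower. There the calls on *Trem2*, *Fabp5* and *Clec7a* were lost in 7, 5 and 2 of 8 fits that left out a library, and that on *Fabp5* also without TMM scaling (adjusted p = 0.0719). The *Trem2* call was also lost with no filter, with values rounded up and with the replicate block (adjusted p up to 0.104). The 4 were *Lpl* (1.26 ± 0.51), *Cd63* (0.22 ± 0.30), *Ctsb* (0.60 ± 0.30) and *Lgals3* (-1.34 ± 0.57), with adjusted p of 0.161, 0.743, 0.255 and 0.185. *Apoe* rose from 2716 ± 2460 to 53312 ± 15024 CPM, a log2 fold change of 4.85 ± 0.58 (adjusted p = 0.000537). The comparisons of day 2 and day 14 with sham share the 4 sham libraries.

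**Figure D4:**
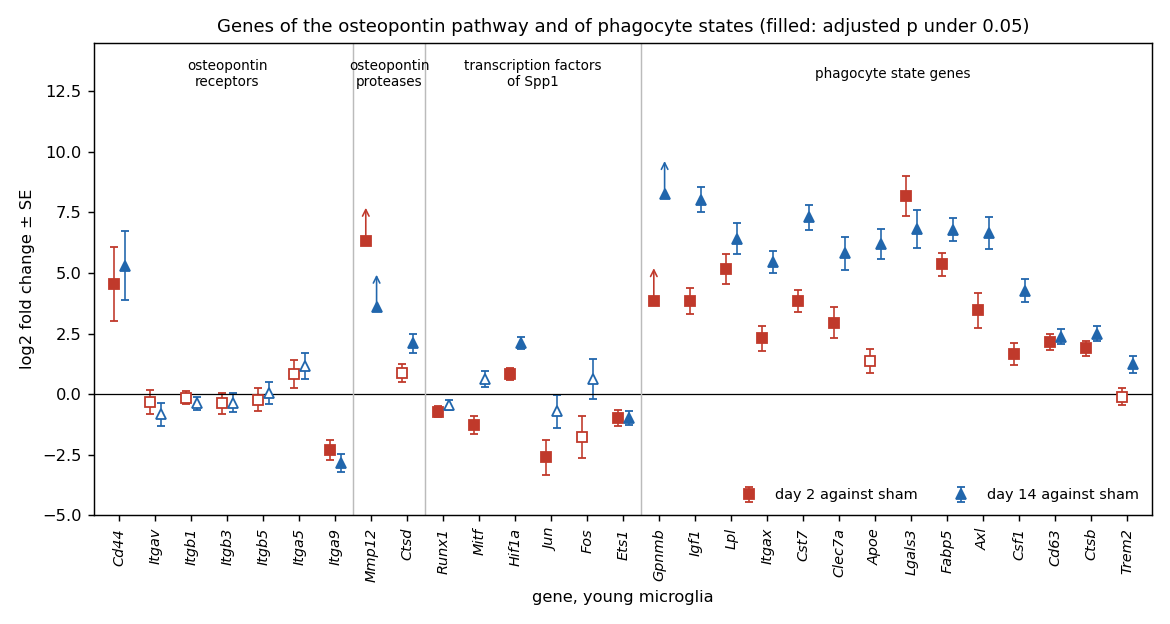
Log2 fold changes by edgeR of tested list genes in young microglia at day 2 (squares) and day 14 (triangles) against sham. Bars are ± SE, derived from the fold change and the F statistic of the test. Filled symbols mark an adjusted p under 0.05. Arrows on *Mmp12* and *Gpnmb* mark lower bounds, as sham had 0 counts. Of the phagocyte state genes, 12 of 14 are filled and above 0 at day 2 and 14 of 14 at day 14, while 5 of 7 receptors are open at both times. The lists were chosen with earlier results of these data known.

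In monocyte-derived cells, 1.79% of 8080 genes were called between day 14 and day 2. None of 7 receptors, 1 protease or 5 transcription factors was called, and 6 of 13 phagocyte state genes rose: *Igf1* by 5.95 ± 0.63, *Csf1*, a macrophage growth factor, by 3.89 ± 0.81, *Axl*, a receptor for dying cells, by 2.41 ± 0.40, *Apoe* by 1.95 ± 0.38, *Gpnmb* by 1.87 ± 0.29 and *Clec7a* by 1.43 ± 0.33. Their adjusted p values were 0.00129, 0.0218, 0.0064, 0.0148, 0.00767 and 0.0395. The blocked fit on replicate numbers called 469 genes in place of 145, among them 7 phagocyte state genes, *Mitf* and *Itga4* (higher) and *Cd44* (lower by -1.01, adjusted p = 0.0491). Leaving out replicate 3 of day 2 left 64 genes and 3 phagocyte state genes. The *Clec7a* call was lost in 8 of 8 fits that left out a library (adjusted p up to 0.253) and with no filter on low counts (0.143), *Csf1* in 4 of 8 and *Apoe* in 3 of 8 and with no filter (0.063).

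Endothelial cells had a mean *Spp1* of 2.18 CPM or less in all 3 young groups. At day 2, 13.3% of 5833 genes were called against sham (6.89% higher and 6.45% lower). Of the 9 list genes tested 2 were called: *Jun* was lower (-1.46 ± 0.37, adjusted p = 0.0179) and *Apoe* was lower (-1.01 ± 0.32, adjusted p = 0.0466), calls lost in 4 and 7 of 8 fits that left out a library. The *Apoe* call was also lost with no filter on low counts (adjusted p = 0.0736) and with cells' values rounded up (0.155). The 402 higher and 376 lower genes became 302 and 467 without TMM scaling. Without replicate 3 of day 2, *Jun* had an adjusted p of 0.0527 and 511 genes were called in place of 778. *Itgb1* was at 0.62 ± 0.23 (adjusted p = 0.0813). At day 14 edgeR called 0 genes, with 356 at an unadjusted p under 0.05, and DESeq2 called 10.

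In aged microglia at day 2, 2.3% of 11096 genes were called, 197 or 1.78% higher and 58 or 0.523% lower (263 and 203 by DESeq2). This contrast within aged mice was fitted together with the 4 young sham and 4 young stroke libraries of day 2. All groups of the fit shared a single estimate of the spread, which therefore rests largely on young males. *Itga9* was lower again (-1.86 ± 0.41, adjusted p = 0.0272), *Lgals3* (4.38 ± 0.96, adjusted p = 0.0254) and *Cst7* (2.20 ± 0.54, adjusted p = 0.0426) were higher, and 12 of 14 phagocyte state genes, both proteases and all 6 tested transcription factors were not called. *Mmp12* had a log2 fold change of 3.75 ± 0.95 (adjusted p = 0.0589; 0.00688 without female replicate 2). The calls on *Itga9*, *Lgals3* and *Cst7* were lost in 3, 4 and 4 of 5 fits that left out a library. Without female replicate 2, 5 phagocyte state genes were called, and the calls of all genes ranged from 0 to 323 as each aged library was left out.

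The genes whose level over cell types and groups was most like that of *Spp1* began with a pair of cathepsins. Over 27 points of young brain, each 1 cell type in 1 group, Pearson's r of log2(mean CPM + 1) with *Spp1* was 0.84 for *Ctsb*, 0.82 for *Ctsz*, 0.78 for *Cd63*, 0.77 for *Cd68* and 0.76 each for *Gpnmb*, *Grn*, *Ifi204* and *Cd300c2*. *Ctsb* and *Ctsz* encode lysosomal cathepsins, *Cd63* and *Cd68* membrane proteins of late endosomes and lysosomes, and *Grn* progranulin. The points share libraries and depth, so this is a description over 10941 eligible genes. With Spearman's rho 6 of the 8 stayed among the 8 highest, and with a pseudocount of 10 it was 5 of the 8. The r covers differences between cell types as well as between groups, so a high r need not mean a rise after stroke. *Cd300c2* had 563 CPM in sham microglia, 434 at day 2 and 448 at day 14. In monocyte-derived cells it had 213, 446 and 408 CPM. Its rank was 21 by Spearman's rho and 38 with a pseudocount of 10. *Gpnmb* had 0 CPM in sham microglia, 11.7 at day 2 and 165 at day 14, and 516 and 1926 CPM in monocyte-derived cells at those days.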

How the data were processed

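Drop-seq libraries of mouse brain and blood were used as the authors deposited them, with a matrix of expected counts and a table of cell labels for every library. The deposited expected counts are not whole numbers; the step that made them so is not given in the sources used here, nor are the aligner and the cell filter. The submitters' processing notes name mm10 and Seurat. Cell types and sub cell types are the authors' labels, and the deposited percent of mitochondrial counts was read but not filtered on. Doublets were not called again here. Of the markers chosen for the check of cell types, 1 is not reported here and was left out of the sums.

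Values were added up over the cells of a type in a library; types with at least 20 cells in a library were kept. CPM and shares of cells were computed from these sums, pseudocount 1 on the log2 scale. Sums rounded to whole counts were tested with edgeR 4.0.16 (TMM, filterByExpr, R 4.3.3); DESeq2 1.42.0 was an alternative. Levels beside those tests are CPM of the rounded sums. The SE beside an edgeR fold change was derived, as the absolute log2 fold change divided by the root of the test's F statistic. Each fit was checked on simulated counts. Intervals cover counting error only. Gene coordinates and the sequence come from the GENCODE annotation of GRCm38.

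The gene, the lists and the tests were chosen with earlier results of these data known. Any list gene may be named; the 8 genes most like *Spp1* were named by their r, leaving out predicted, mitochondrial, ribosomal, haemoglobin, immunoglobulin and T cell receptor genes. Of monocyte-derived cells, libraries of days 2 and 14 with the same number deviated together (correlations 0.27, 0.76, 0.67 and 0.35), so the blocked value is given there; nothing in the labels says what a number shares.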

Additional observations from a re-analysis of the deposited data

Results flagged for a closer look

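Of 25 groups of 4 libraries whose *Spp1* CPM could be checked for a library far from the others, 7 had one. In 6 of these the other libraries were all at 0, so that any value above 0 stands apart, and the count of 7 cannot be set against the 1 in 20 groups that chance gives for continuous values. In young microglia of stroke day 14, replicate 3 had 17328 CPM from 684 cells, against 2900 to 4891 CPM in the other 3 libraries. Its monocyte-derived cells were also the highest of the group, with 23930 CPM. In the 6 cases with the remaining libraries at 0, the value rests on less than 1 count. These were brain sham B cells of replicate 4 (107 CPM, 30 cells), brain sham endothelial cells of replicate 4 (8.70 CPM), brain day 14 endothelial cells of replicate 3 (3.61 CPM), blood sham NK cells of replicate 3 (24.7 CPM, 62 cells), blood sham B cells of replicate 1 (0.568 CPM) and blood day 2 B cells of replicate 4 (1.08 CPM).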

How the results depend on the processing

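Each choice was changed alone. Of 49 *Spp1* values under another setting, 45 moved by less than the combined SD of both groups. So did 53 of 53 with a library left out, and none changed sign. That limit is wide, as sham libraries near 0 and outlying libraries enter it. With a pseudocount of 10 the microglial log2 differences from sham were 9.81 at day 2 and 9.17 at day 14. Over cells of at least 500 counts, those of monocyte-derived cells were 8.53 and 9.55. Their day 2 share was 38.0% thinned to 300 counts and 44.9% thinned to 500. With 1 library left out, microglial *Spp1* ranged from 11.20 to 11.75 at day 2 against sham, from 10.05 to 11.15 at day 14 against sham and from -1.48 to -0.37 between the days. Monocyte-derived *Spp1* ranged from 5.68 to 6.57, from 6.75 to 7.56 and from 0.66 to 1.45, and aged microglia from 6.76 to 7.98.

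Calls moved more: 82 of 105 counts under other settings and 103 of 159 with a library left out stayed within 1.5 times. Without TMM scaling, microglia had 3425 calls at day 14 against sham (median log2 fold change of all genes -0.49, against -0.04 with it) and 1157 between the days. With cells' values rounded up, 1057 were called between the days. DESeq2 gave 5 calls on receptors, proteases and transcription factors there. In monocyte-derived cells DESeq2 gave 386 calls, 2 of them on those lists, and the replicate block 469, with 3. In endothelial cells of day 2, DESeq2 gave 2 calls on those lists, and rounding up gave 2 on phagocyte state genes, both higher, while the lower *Apoe* call was lost. In those of day 14, 6 genes were called with no filter, 11 rounded up, 10 by DESeq2 and 1 with the replicate block. In aged microglia 393 were called with no filter, 386 rounded up and 466 by DESeq2. There 2 were on those lists with no filter and 2 by DESeq2. Phagocyte state calls there were 5, 4, 4 and 5 with no filter, without TMM, rounded up and by DESeq2. Between days 2 and 14, same-numbered endothelial libraries also deviated together (correlations 0.26, 0.48, 0.48 and 0.14), but no endothelial comparison between the days was made. The microglial correlations were 0.07, 0.55, 0.19 and 0.38, so 1 of 4 pairs missed 0.1. The replicate block gave 512 microglial calls between the days, without *Trem2*.

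With 1 library left out, calls on all genes, on the first 3 lists and on phagocyte state genes ranged as follows. Microglia had 2094 to 3120, 3 to 8 and 11 to 12 at day 2, 791 to 2573, 4 to 6 and 13 to 14 at day 14, and 276 to 735, 1 to 3 and 7 to 10 between the days. Monocyte-derived cells had 45 to 191, 0 and 3 to 5. Endothelial cells had 320 to 991, 0 to 2 and 0 to 1 at day 2, and 0 to 1, 0 and 0 at day 14. Aged microglia had 0 to 323, 0 to 3 and 0 to 5. Where an aged fit kept 1 aged sham library, that library was assumed to vary like the other groups of the fit, young libraries among them. The cause of these differences was not tested. The deposited fractions limit values under 1 count, and sham *Spp1* rests on few counts.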
